A study of Mus musculus with 60 samples.

Results

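The mouse genes for 8 calcium-binding proteins of neurons, Calb1, Calb2, Pvalb, Hpca, Hpcal1, Hpcal4, Ncald and Necab1, were followed in hippocampus. They were chosen by name, with earlier results of these data known, and all 8 were found among the 24508 gene symbols of the expression table. RNA-seq compared 9 wild-type (WT) libraries with 9 R6/1 libraries, each an independent biological replicate of hippocampal tissue taken at 30 weeks of age from mice of an equal CBA and C57BL/6 background. R6/1 mice are a Huntington's disease model that carries a transgene of human huntingtin exon 1 with a long CAG repeat under the human promoter, while the WT mice lack it. The transgene is human, so its level was not analysed here. Lamin B1 ChIP-seq of the same tissue, with 5 mice pooled per replicate, gave 1 list of lamin-bound domains for each genotype.

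All 8 proteins bind calcium through EF hands, helix-loop-helix folds that hold the ion in the loop. Calbindin (Calb1), calretinin (Calb2) and parvalbumin (Pvalb) are abundant soluble proteins best known as buffers that shape calcium transients, and each marks its own set of hippocampal neurons. Hippocalcin (Hpca), Hpcal1, Hpcal4 and neurocalcin delta (Ncald) are neuronal calcium sensors, which expose a myristoyl group and move to membranes when calcium rises. Necab1 belongs to a small neuronal family that joins EF hands to a monooxygenase-like domain.

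Of the 8 genes, 7 were lower in R6/1 hippocampus and Necab1 was higher. Every member passed the test, which was limma on log2(RPKM + 0.5) with Benjamini-Hochberg adjustment over 14446 genes and a threshold of 0.05. The background was wide, since 48.3% of all tested genes passed. Of all tested genes, 23.5% passed as lower in R6/1 and 24.8% as higher. In the authors' deposited table all 8 members also had an adjusted p under 0.05, as did 40.4% of its genes. The members' median log2 difference was -0.43, against 0.00363 over all tested genes. Because the members were chosen with earlier results known, their calls and median are set beside these values as a description only. Scaling each library by its own total of reads moved the share of calls that were higher from 51.4% to 66.9% and shifted the median of all genes to 0.07, and the members kept their directions and calls there.

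Libraries held between 12299434 and 16736544 reads on genes, and the reads behind a single member's value ranged from 229 to 24095. The tissue label was checked against marker lists. The summed level of 6 CA1 pyramidal markers was 180 to 243 RPKM in WT and 129 to 158 RPKM in R6/1. That of 9 dentate granule markers was 106 to 164 RPKM in WT and 60.4 to 75.9 RPKM in R6/1. The dentate list includes the member Calb1, with means of 34.8 and 28.1 RPKM. Of 10 pan-neuronal markers 8 were lower and 1 higher in R6/1, with sums of 2850 to 3430 RPKM and 2520 to 2690 RPKM. Astrocyte markers were lower for 6 of 6 genes, oligodendrocyte markers for 4 of 6, microglial markers for 3 of 6 and endothelial markers for 1 of 6. Among all tested genes 23.5% were lower. Choroid plexus markers, which mark tissue beside the hippocampus, summed to 25.5 to 1070 RPKM in WT and 38.5 to 1740 RPKM in R6/1, and none of the 6 passed. In whole tissue, fewer cells of a type and less RNA per cell cannot be told apart.

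The 4 neuronal calcium sensors are close relatives, and a stretch of their coding sequence is shown to let them be compared. The first 120 coding bases of Hpca, Hpcal1, Hpcal4 and Ncald are printed from the GENCODE transcripts, with capitals at the bases that differ from Hpca.
Hpca: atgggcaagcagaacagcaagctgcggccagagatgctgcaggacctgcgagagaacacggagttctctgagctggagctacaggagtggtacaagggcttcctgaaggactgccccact
Hpcal1: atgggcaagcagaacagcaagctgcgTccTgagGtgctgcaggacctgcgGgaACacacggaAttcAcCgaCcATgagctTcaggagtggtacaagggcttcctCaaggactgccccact
Hpcal4: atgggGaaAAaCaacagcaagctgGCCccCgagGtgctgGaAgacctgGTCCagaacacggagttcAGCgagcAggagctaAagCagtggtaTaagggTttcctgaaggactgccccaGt
Ncald: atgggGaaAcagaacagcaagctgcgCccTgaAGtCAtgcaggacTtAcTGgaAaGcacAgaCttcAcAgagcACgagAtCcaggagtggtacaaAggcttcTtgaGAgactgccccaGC
Hpcal1 differed from Hpca at 14 of these bases, Hpcal4 at 24 and Ncald at 28, which left 88.3%, 80.0% and 76.7% of them identical. Over the whole coding sequence Hpca was 86.1% identical to Hpcal1, 78.7% to Ncald and 70.9% to Hpcal4. The longest run of bases shared by the coding sequences of Hpca and Ncald was 46, and that of Hpca and Hpcal1 was 38. No pair of members had a run of 50 bases in common between their transcripts. The encoded proteins are 193 amino acids long for Hpca, Hpcal1 and Ncald and 191 for Hpcal4.

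Hpca had the highest RPKM of the members and the largest fall. Hippocalcin is a sensor rich in pyramidal neurons, where it is tied to the slow afterhyperpolarization. Its level in WT was 550 RPKM in the lowest library, 674 at the median and 949 in the highest, and in R6/1 it was 259, 310 and 430. Every R6/1 library was below every WT library. The means were 730 ± 126 RPKM (SD, n = 9) and 319 ± 55.2 RPKM, a level 56.2% lower. The log2 difference was -1.19 with a 95% interval of -1.41 to -0.97 (limma adjusted p = 1.76e-08). By the size of this difference Hpca stood at rank 118 of the tested genes, and by mean level at rank 43 of all genes.

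Hpcal4, the other member whose genotypes did not overlap, was also abundant. It encodes a visinin-like sensor of the brain. The WT libraries ran from 239 RPKM through a median of 282 to 369, and the R6/1 libraries from 174 through 191 to 228. The lowest WT library was thus above the highest R6/1 library, as was so for 11.9% of all tested genes in either direction, for 6.38% with R6/1 the lower and for 5.5% with R6/1 the higher. The log2 difference was -0.50 (95% interval -0.65 to -0.36, limma adjusted p = 7.93e-06), with means of 280 ± 38.8 and 197 ± 18.1 RPKM (SD, n = 9).

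Ncald encodes a sensor that binds clathrin and tubulin, and it was lower in R6/1 with overlap between the genotypes. Its WT levels were 119 RPKM at the lowest, 140 at the median and 186 at the highest, against 96.0, 106 and 141 in R6/1. While 7 R6/1 libraries lay below every WT library, only 3 WT libraries lay above every R6/1 library. The means were 144 ± 18.9 and 110 ± 13.6 RPKM (SD, n = 9), and the log2 difference was -0.38 (95% interval -0.54 to -0.23, limma adjusted p = 0.000297).

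Hpcal1, the closest relative of Hpca by coding sequence, was expressed at a far lower level. The WT libraries held 21.0 RPKM at the lowest, 27.0 at the median and 29.4 at the highest, and the R6/1 libraries 14.9, 17.3 and 23.5. In all, 7 R6/1 libraries lay below every WT library. The means were 25.7 ± 3.06 and 18.3 ± 2.65 RPKM (SD, n = 9), and the log2 difference was -0.48 (95% interval -0.65 to -0.32, limma adjusted p = 5.08e-05).

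**Figure D1:**
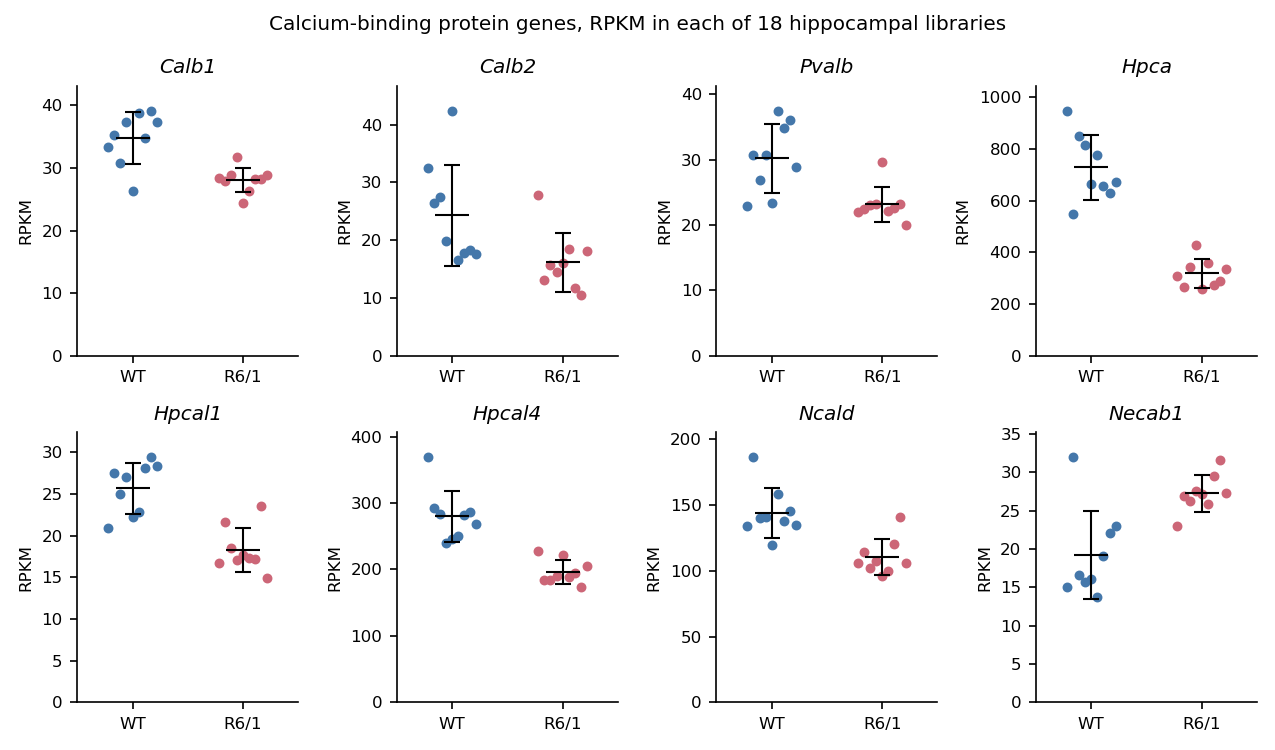
RPKM of the 8 members in each library, with WT in blue and R6/1 in red, 9 points each in replicate order; the black bar is the mean and the whiskers 1 SD, and each panel has its own axis from 0. Hpca and Hpcal4 do not overlap between genotypes, the WT library with 32.0 RPKM of Necab1 lies above all R6/1 libraries, and the other members overlap in part.

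The 3 buffer genes fell by less than Hpca. Calbindin is the main buffer of dentate granule cells and of part of the CA1 pyramidal cells. Calb1 in WT was 26.3 RPKM in the lowest library, 35.3 at the median and 39.2 in the highest, and in R6/1 it was 24.4, 28.3 and 31.7. In all, 7 WT libraries lay above every R6/1 library, but only 2 R6/1 libraries lay below every WT library, because WT replicate 5 was low. The means were 34.8 ± 4.16 and 28.1 ± 1.98 RPKM (SD, n = 9), and the log2 difference was -0.30 (95% interval -0.43 to -0.16, limma adjusted p = 0.00081).

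Parvalbumin marks fast-spiking basket and axo-axonic interneurons. Pvalb had 22.9 RPKM in the lowest WT library, 30.6 at the median and 37.5 in the highest, and 20.0, 22.7 and 29.7 in R6/1. In all, 5 R6/1 libraries lay below every WT library. The means were 30.2 ± 5.27 and 23.2 ± 2.64 RPKM (SD, n = 9), with a log2 difference of -0.36 (95% interval -0.55 to -0.18, limma adjusted p = 0.0022).

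Calretinin marks a set of interneurons that contact other interneurons, and in mice also mossy cells and Cajal-Retzius cells. Calb2 was the member with the widest spread, with a coefficient of variation of 35.9% in WT and 31.5% in R6/1. Its WT levels were 16.6 RPKM at the lowest, 19.8 at the median and 42.4 at the highest, and its R6/1 levels were 10.6, 15.7 and 27.8. In all, 6 R6/1 libraries lay below every WT library. The means were 24.4 ± 8.74 and 16.2 ± 5.11 RPKM (SD, n = 9), and the log2 difference was -0.55 with an interval of -0.93 to -0.17 (limma adjusted p = 0.0167).

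Markers of neighbouring tissue varied among the libraries in which Calb2 was high. The 3 WT libraries with the highest choroid plexus sums, replicates 1, 3 and 5, had 957, 1070 and 919 RPKM of those markers and 32.5, 27.5 and 42.4 RPKM of Calb2. In R6/1 the highest choroid plexus sum, 1740 RPKM in replicate 3, came with 15.7 RPKM of Calb2. Of 10 thalamus and habenula markers 9 were tested, 5 were lower and 1 higher in R6/1, and their sum was 28.9 to 87.7 RPKM in WT and 20.1 to 29.2 RPKM in R6/1. WT replicate 6 had the highest of these sums and 577 RPKM of choroid plexus markers, but the lowest WT Calb2, 16.6 RPKM. WT replicate 2 had 113 RPKM of choroid plexus markers and 26.4 RPKM of Calb2. For mossy and Cajal-Retzius cells 3 of 4 tested markers were lower, with sums of 6.09 to 8.47 RPKM and 3.77 to 6.3 RPKM. The part of these other cells in the Calb2 difference was not tested.

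Necab1 was the member that rose. It is found in subsets of cortical and hippocampal neurons, many of them inhibitory. Its WT levels were 13.7 RPKM at the lowest, 16.6 at the median and 32.0 at the highest, and its R6/1 levels were 23.0, 27.2 and 31.6. Of the 9 WT libraries, 8 lay below every R6/1 library, and WT replicate 2 lay above all of them. The means were 19.2 ± 5.72 and 27.2 ± 2.39 RPKM (SD, n = 9), a level 41.6% higher in R6/1. The log2 difference was 0.53 (95% interval 0.28 to 0.78, limma adjusted p = 0.000981). The sum of 7 neocortex and subiculum markers was also highest in WT replicate 2, at 80.0 RPKM, against 46.8 to 72.5 RPKM in the other WT libraries and 48.3 to 60.9 RPKM in R6/1. Without WT replicate 2 the Necab1 difference was 0.63. The other WT libraries varied in the same way. The next highest sums, 72.5 and 69.6 RPKM in WT replicates 8 and 9, came with 22.1 and 22.9 RPKM of Necab1. The lowest WT sums, 46.8 and 50.8 RPKM in replicates 1 and 6, came with 15.0 and 13.7 RPKM. In R6/1 the highest sum, 60.9 RPKM in replicate 5, came with 27.2 RPKM of Necab1. The part of that tissue in the Necab1 levels was not tested.

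No library was high or low for all members. Among WT libraries, replicate 1 was the highest for Hpca and Hpcal4 and the lowest for Pvalb and Hpcal1, and replicate 2 was the highest for Ncald and Necab1 and the lowest for Hpca. WT replicate 5 was the highest for Calb2 and the lowest for Calb1 and Ncald, and WT replicate 6 was the highest for Pvalb and the lowest for Calb2 and Necab1. Among R6/1 libraries, replicate 8 was the highest for Hpcal1, Ncald and Necab1 and the lowest for Calb2 and Hpcal4. R6/1 replicate 5 was the highest for Pvalb and the lowest for Calb1, Hpca and Ncald. In each of these 6 libraries some members were at the top of their genotype and others at the bottom.

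RPKM is scaled for transcript length, so levels were set side by side between genes, but their order depends on the length given to each gene. By the authors' mean normalized count over all libraries, which is not scaled for length, Hpcal4 (16387.5) was above Hpca (14239.2). The orders below are by RPKM. In WT the order was Hpca, Hpcal4, Ncald, Calb1, Pvalb, Hpcal1, Calb2 and Necab1. The first 3 did not overlap with the gene below them in either genotype. Further down, neighbours overlapped: Hpcal1 was above Calb2 in 6 of 9 WT libraries and Calb2 above Necab1 in 5 of 9. In R6/1 the same order held except that Necab1 stood in place 5, above Pvalb in 8 of 9 libraries, and Calb1 was above Necab1 in 6 of 9.

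Whether the members fell equally was asked with the ratio between each pair within a library, which nearly cancels the scaling of the library. A two-sided exact permutation test was used for 28 pairs, with adjustment over the 28, and the smallest p it can give is 4.11e-05. Differences between genotypes passed for 13 pairs, and each of the 13 held Hpca or Necab1. None of the 15 pairs without these genes passed. In the log2 ratio, Hpca fell by 0.69 on the log2 scale relative to Hpcal4 (exact adjusted p = 0.00077), by 0.71 relative to Hpcal1 (exact adjusted p = 0.00269) and by 0.81 relative to Ncald (exact adjusted p = 0.00092). The ratio of Calb1 to Hpca rose by 0.89 and had no overlap between genotypes (exact adjusted p = 0.000288). The ratio of Hpca to Necab1 changed most among the 28, with a difference of -1.72 (exact adjusted p = 0.000288).

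Pairs that did not pass included close relatives and unlike cell markers. Hpcal1 over Hpcal4 differed by 0.02 between genotypes (exact adjusted p = 0.898), and Pvalb over Ncald by 0.02 (exact adjusted p = 0.898). Calb1 over Calb2 differed by 0.26 (exact adjusted p = 0.454). Calb1 over Hpcal1 differed by 0.19 (exact adjusted p = 0.131), and without R6/1 replicate 8 it passed with 0.23 (exact adjusted p = 0.0432). A ratio that missed the threshold does not show that the genes fell alike.

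**Figure D2:**
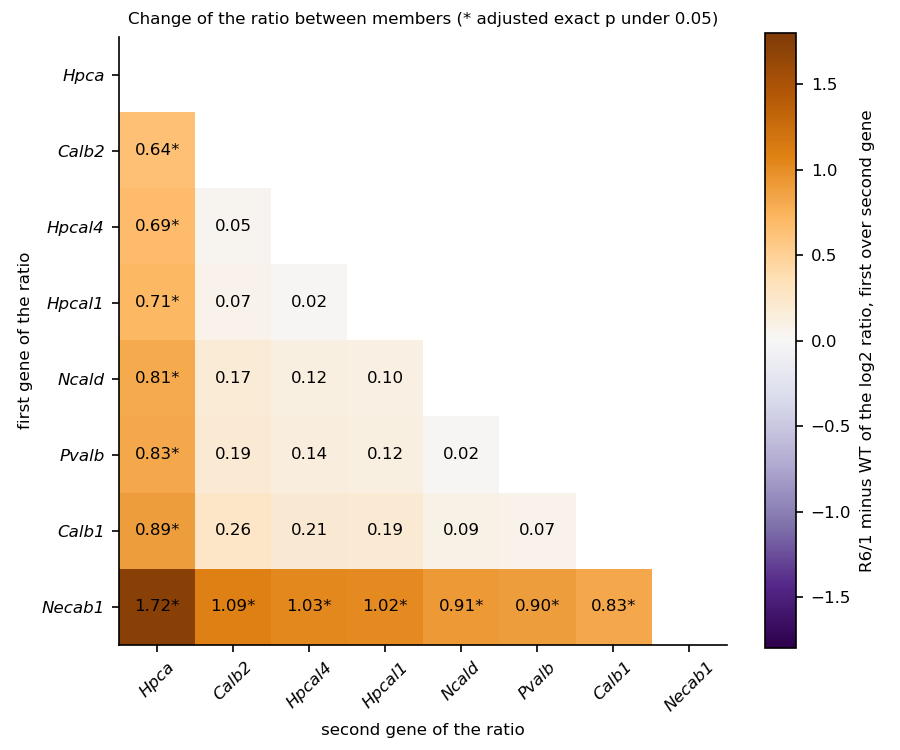
Change between genotypes of the log2 ratio of each pair of members, R6/1 minus WT, with the gene of the row over the gene of the column; an asterisk marks an exact permutation p under 0.05 after adjustment over 28 pairs. Only the Hpca column and the Necab1 row hold asterisks, 13 in all, and the cell of Necab1 and Hpca is the darkest.

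Each member was also set against markers of the neurons that express it, as its log2 level minus the mean log2 level of a list in the same library. In all, 16 such comparisons were made with exact permutation tests and adjusted together, and 9 passed. Relative to 10 pan-neuronal genes, Hpca fell by 0.97 on the log2 scale without overlap (exact adjusted p = 0.000165) and Hpcal4 fell by 0.28 (exact adjusted p = 0.00179). Necab1 rose by 0.76 (exact adjusted p = 0.000527). Hpcal1 fell by 0.26 (exact adjusted p = 0.0352), a call that was lost when any 1 of 11 of the 18 libraries was left out, namely WT replicates 2, 4, 7, 8 and 9 and R6/1 replicates 1, 4, 5, 6, 7 and 9, with exact adjusted p between 0.0529 and 0.0684. It was also lost when Stmn2 (exact adjusted p = 0.073) or Syp (exact adjusted p = 0.0548) was left out of the list.

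The other members did not pass against the pan-neuronal list. The differences were -0.07 for Calb1 (exact adjusted p = 0.387), -0.14 for Pvalb (exact adjusted p = 0.255) and -0.33 for Calb2 (exact adjusted p = 0.182). For Ncald the difference was -0.16 (exact adjusted p = 0.119). Without R6/1 replicate 8 it passed, with -0.20 (exact adjusted p = 0.021). Against the median level of the list in each library it also passed, with -0.24 (exact adjusted p = 0.0471). By mean RPKM the middle genes of that median were Map2 and Nefl in WT but Stmn2 and Map2 in R6/1. The genes behind this reference thus differed between genotypes. For these 4 members the WT and R6/1 values overlapped.

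Calb1 fell by less than the mean of the markers of its own cells, though not less than each of them. Of 9 dentate granule markers 8 were lower in R6/1, with a median log2 difference of -1.22 over the list, which includes Calb1. Relative to the dentate markers without Calb1, Calb1 was 1.04 higher on the log2 scale in R6/1, and all 9 R6/1 libraries lay above all WT libraries (exact adjusted p = 0.000165). C1ql2, a synaptic protein of granule cell axons that is on the list, went from 25.9 to 5.56 RPKM, whereas Prox1, a transcription factor of granule cells, went from 14.8 to 10.5 RPKM. Relative to CA1 markers, 6 of 6 of which were lower with a median of -0.44, Calb1 was 0.35 higher without overlap (exact adjusted p = 0.000165). Wfs1, an endoplasmic reticulum membrane protein on the CA1 list, had a log2 difference of -1.76, and the other 5 lay between -0.67 and -0.26. Without Wfs1 Calb1 was 0.13 higher than the list (exact adjusted p = 0.0441). Single markers fell less than Calb1 or were higher: Pla2g4e of the dentate list had 0.26 (limma adjusted p = 0.442) and Man1a of the CA1 list -0.26 (limma adjusted p = 0.00203), against -0.30 for Calb1.

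Hpca fell by 0.54 on the log2 scale relative to the mean of the CA1 markers (exact adjusted p = 0.00077), and without Wfs1 by 0.76 (exact adjusted p = 0.000165). Against the median level of the list in each library Hpca fell by 0.28 (exact adjusted p = 0.00296). Ncald rose by 0.27 relative to that mean (exact adjusted p = 0.0169), but without Wfs1 it was 0.05 (exact adjusted p = 0.73), so the Ncald call against the mean rests on that 1 marker. Against that median level Ncald rose by 0.53 (exact adjusted p = 0.00296). The median is of levels, not of changes. By mean RPKM its middle genes were Fibcd1 and Spink8 in WT (34.5 and 22.1). In R6/1 they were Spink8 and Wfs1 (14.1 and 13.6). The Hpca and Ncald values against the median thus also depend on Wfs1, and they are no check on those against the mean. In all, 6 R6/1 libraries lay below all WT libraries for the Hpca value relative to the mean.

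The interneuron genes split. Among 11 inhibitory markers 8 were lower and none higher in R6/1, with sums of 708 to 850 RPKM in WT and 428 to 558 RPKM in R6/1. Among all tested genes 23.5% were lower. Somatostatin, Sst, a peptide of dendrite-targeting interneurons, went from 195 to 86.7 RPKM, and Gad1, an enzyme of GABA synthesis, from 93.2 to 80.4 RPKM. Cck, also on the list, went from 234 to 119 RPKM. Sst and Cck had the highest WT means of the list and so weigh most in the WT sums. Slc32a1, Lhx6 and Erbb4 did not pass, with log2 differences of 0.03, -0.14 and -0.08. Relative to this list Pvalb differed by 0.13 (exact adjusted p = 0.268) and Calb2 by -0.06 (exact adjusted p = 0.830). Relative to 6 fast-spiking markers, 4 of which were lower, Pvalb differed by -0.00294 (exact adjusted p = 0.972). Necab1 relative to the inhibitory list was 1.03 higher in R6/1, with no overlap (exact adjusted p = 0.000165).

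**Figure D3:**
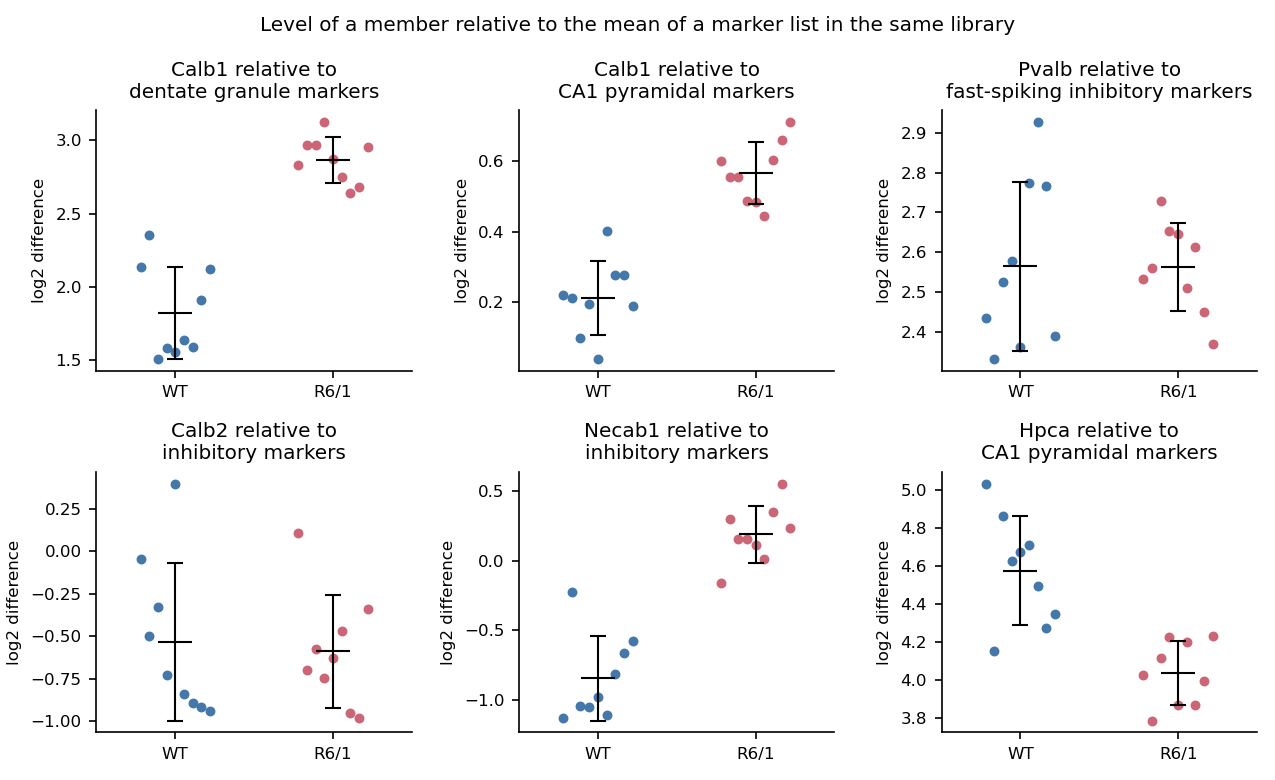
Log2 level of a member minus the mean log2 level of a marker list in the same library, for 9 WT (blue) and 9 R6/1 (red) libraries with mean and SD; the vertical axes differ between panels and do not start at 0. Calb1 against dentate and CA1 markers and Necab1 against inhibitory markers show no overlap, while Pvalb and Calb2 overlap widely.

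Among libraries of 1 genotype, the relations that passed were negative ones of Calb2 with Calb1, Pvalb or Necab1. In 56 relations between members, 28 in each genotype, 3 passed after adjustment for Pearson's r and none for Spearman's rho, and 8 had an unadjusted exact permutation p under 0.05 for r. In WT, Calb2 and Calb1 had r = -0.89 (n = 9, exact permutation p = 0.00216, adjusted p = 0.0403) and rho = -0.75 (adjusted p = 0.178). Calb2 and Pvalb in WT had r = -0.87 (n = 9, exact permutation p = 0.00193, adjusted p = 0.0403) and rho = -0.78 (adjusted p = 0.178). In R6/1, Calb2 and Necab1 had r = -0.93 (n = 9, exact permutation p = 0.000675, adjusted p = 0.0378) and rho = -0.80 (adjusted p = 0.178).

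Each relation was also taken without the 2 libraries farthest from the median of 1 of its genes. That gene was Calb1 for Calb2 and Calb1, and Calb2 for the others. There r was -0.77, -0.68 and -0.72 in these 3 relations, so the sign held with fewer libraries. Other relations of Calb2 were positive and did not pass: with Hpcal4 r was 0.74 in R6/1 (n = 9, exact permutation p = 0.0205, adjusted p = 0.191) and 0.25 in WT, and with Hpca it was 0.25 in R6/1 and 0.15 in WT. The same pairs as above had, in the other genotype, r = -0.10 for Calb1 and Calb2 in R6/1, r = -0.18 for Calb2 and Pvalb in R6/1, and r = -0.13 for Calb2 and Necab1 in WT. The difference between genotypes was not tested. The 3 WT libraries with the highest choroid plexus sums were also the 3 highest for Calb2. WT replicate 6, with a choroid plexus sum of 577 RPKM, had the lowest WT Calb2, at 16.6 RPKM. The part of that tissue in the WT relations was not tested.

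**Figure D4:**
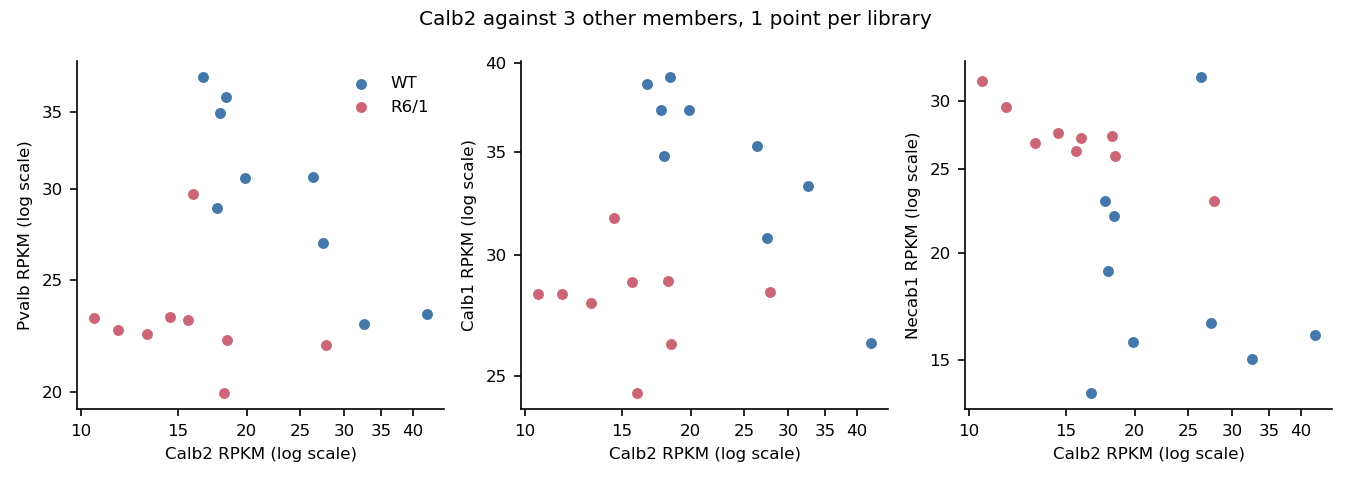
Calb2 RPKM against Pvalb, Calb1 and Necab1 RPKM in each library, both axes on a log scale, WT in blue and R6/1 in red. The WT points fall from upper left to lower right for Pvalb and Calb1, and the R6/1 points do so for Necab1.

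The genes whose deviations from the genotype mean were most like a member's are given as a description over the 18 libraries, picked as the highest of 13104 genes by Pearson's r and therefore without a test. For Hpca these were Stum (r = 0.95), Stim2 (r = 0.92), an endoplasmic reticulum calcium sensor that fell from 30.8 to 22.6 RPKM (limma log2 difference -0.44, adjusted p = 8.17e-05), and Il16 (r = 0.92). For Necab1 they were Gng4, Satb1 and Gabra3 (r = 0.90 for each), of which Gng4 rose with a log2 difference of 0.76 (limma adjusted p = 1.3e-05) and Satb1 had 0.11 (limma adjusted p = 0.377). For Calb2 they were AW551984 (r = 0.88), Apoe (r = 0.85) and Mr1 (r = 0.82). AW551984 rose in R6/1 from 1.28 to 3.52 RPKM, opposite to Calb2.

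For the remaining members the highest r values were of the same order. They were 0.88 for Calb1 with Plpp6, 0.81 for Pvalb with Pitpnc1, 0.82 for Hpcal1 with Pkig, 0.88 for Hpcal4 with Cmtm4 and 0.84 for Ncald with Fabp3. Likeness within a genotype and direction between genotypes did not always go together: Syt4, a synaptotagmin, was among the 3 most like Hpcal4 (r = 0.86) and rose by 0.34 while Hpcal4 fell.

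Other calcium-binding genes were read from 5 lists. Of the 11 other neuronal calcium sensor and NECAB genes 8 were tested, 6 were lower and none higher, with a median log2 difference of -0.43. Over all tested genes 23.5% were lower and 24.8% higher. Kcnip2, a sensor that is a subunit of A-type potassium channels, fell from 69.9 to 36.8 RPKM (log2 difference -0.91, limma adjusted p = 1.74e-08). Necab3 fell from 14.3 to 7.10 RPKM (log2 difference -0.95, limma adjusted p = 2.5e-07), the opposite direction to its relative Necab1. Necab2 did not pass, with 43.7 RPKM in WT, 39.0 in R6/1 and a log2 difference of -0.15 (limma adjusted p = 0.254).

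Further sensors covered a range of sizes. Vsnl1, a visinin-like sensor, fell from 235 to 174 RPKM without overlap, and Ncs1, the family's founding member, fell from 133 to 111 RPKM. Kcnip4 and Kcnip3 had log2 differences of -0.57 and -0.43 and passed, and Kcnip1 had -0.03 (limma adjusted p = 0.766). The retinal genes Rcvrn, Guca1a and Guca1b had means under 0.5 RPKM and were not tested.

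Of 12 calmodulin and calmodulin-like genes 11 were tested, 8 were lower and none higher, with a median of -0.44, against 23.5% lower among all tested genes. Pcp4, a small protein that binds calmodulin, fell from 98.3 to 56.2 RPKM (log2 difference -0.79, limma adjusted p = 6.15e-05), and Cabp7, a calmodulin-like protein, fell from 103 to 59.7 RPKM without overlap (log2 difference -0.78, limma adjusted p = 7.89e-08).

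Calcium pumps, stores and S100 proteins were read the same way, against the 48.3% of all tested genes that passed. Of 14 calcium pumps and exchangers 8 were lower, 1 higher and 5 did not pass, with a median of -0.24. Slc8a2, a sodium-calcium exchanger of the plasma membrane, fell from 97.4 to 48.3 RPKM (limma adjusted p = 1.07e-10), and Slc24a4 and Atp2b1, an exchanger and a plasma membrane pump, had -0.63 and -0.60. Of 16 genes of calcium stores 7 were lower, 2 higher and 7 did not pass. Stim1 rose from 21.7 to 29.6 RPKM (log2 difference 0.43, limma adjusted p = 2.31e-08), while Stim2, named above, and Ryr2, a calcium release channel, fell. Of 8 tested S100 genes 4 were lower, among them S100a16 (-0.52), S100a13 (-0.34) and S100b (-0.33), and 4 did not pass.

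**Figure D5:**
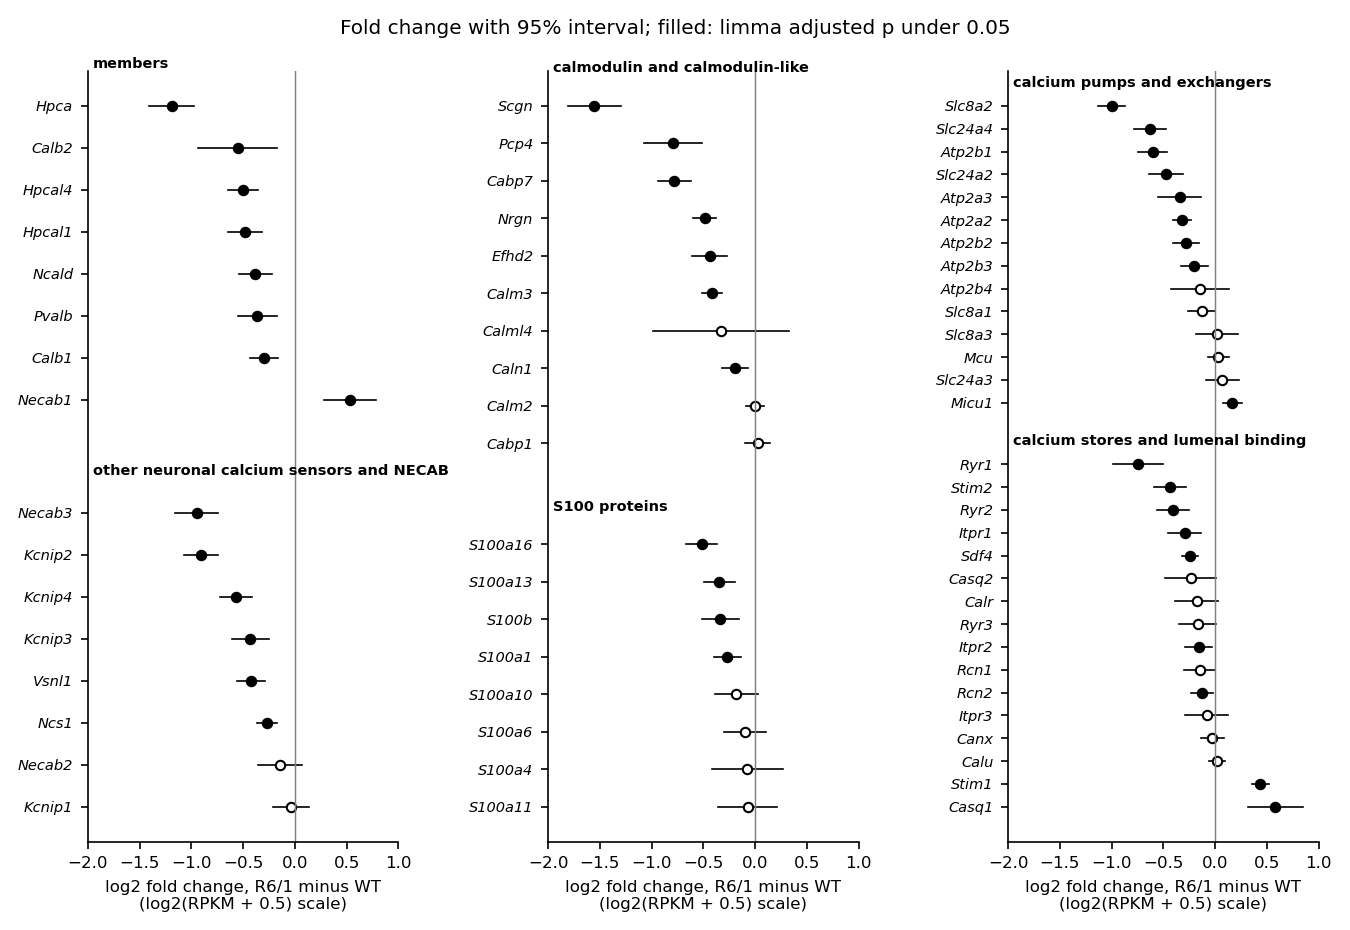
Log2 fold change, R6/1 minus WT, with its 95% interval from limma for the 8 members and for genes of 5 other calcium lists; filled points passed the threshold of 0.05 after adjustment and open points did not. The 7 lower members lie left of 0 with Hpca at -1.19, and Necab1 lies right of it at 0.53.

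On chromosome 4 lie 4 of the 8 members. On build NCBIM37, Necab1 spans chr4:14879392-15076941 on the minus strand and Calb1 chr4:15808411-15835211 on the plus strand, 731.5 kb apart. A single protein-coding gene, Tmem64, lies between them. Tmem64 had 11.2 RPKM in both genotypes (log2 difference 0.00, limma adjusted p = 0.984), while Calb1 fell and Necab1 rose. Hpcal4 lies at chr4:122860470-122871944 and Hpca at chr4:128788814-128799280, on opposite strands.

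Calb1 and Necab1 were the members inside lamin B1 domains, and both lay whole in 1 domain in each genotype. The domain covered 19.31 Mb in WT (chr4:12099001-31413000) and 17.5 Mb in R6/1 (chr4:13801001-31302000). From the start of Calb1 the nearest edge was 3709.4 kb away in WT and 2007.4 kb in R6/1, and from the start of Necab1 it was 2977.9 kb and 1275.9 kb. The other 6 members started in no domain of either genotype, with the nearest domain between 2157.6 kb (Hpcal1) and 14390.7 kb (Hpca) away in WT. Of 12827 tested genes placed by name, 7.63% started in domains of both genotypes. With 1 list per genotype these bounds have no replicate spread.

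The remaining members lie on other chromosomes. Calb2 is at chr8:112661402-112692110, Hpcal1 at chr12:17697620-17798732, Pvalb at chr15:78021544-78036830 and Ncald at chr15:37295930-37722325, where it spans 426.4 kb. Hpca overlaps Tmem54 on the other strand, which had 0.08 RPKM in each genotype. Necab1 overlaps Gm11837 on the other strand, with 0.51 RPKM in WT and 0.72 RPKM in R6/1 (limma adjusted p = 0.11), and also Gm11844. Ncald overlaps 4 annotated genes on the other strand, among them 4930447A16Rik with 0.11 RPKM in WT and 0.12 RPKM in R6/1, and 4 on its own strand. The libraries keep the strand, but whether the counting used it is not given in the sources used here.

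Promoter windows of 250 bases before the start site were found for 4 members in the RefSeq table of build GRCm38.p6, 7 windows in all for Hpca, Hpcal1, Hpcal4 and Pvalb. They were searched on both strands for the cAMP response element TGACGTCA and for the EGR site in the forms GCGTGGGCG and GCGGGGGCG, both recognised by factors that respond to neuronal activity, and for the E-box CANNTG. The windows of the close relatives Hpcal1 and Hpca are shown because the genes fell to different degrees. Hpcal1 is at chr12:17690559-17690808 on the plus strand and Hpca at chr4:129121748-129121997 on the minus strand, the outermost of its 3 windows, and capitals mark an EGR match.
Hpcal1: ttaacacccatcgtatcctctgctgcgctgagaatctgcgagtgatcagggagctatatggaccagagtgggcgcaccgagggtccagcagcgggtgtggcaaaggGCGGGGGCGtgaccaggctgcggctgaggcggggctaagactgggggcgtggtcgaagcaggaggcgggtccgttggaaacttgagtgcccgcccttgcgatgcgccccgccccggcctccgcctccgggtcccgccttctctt
Hpca: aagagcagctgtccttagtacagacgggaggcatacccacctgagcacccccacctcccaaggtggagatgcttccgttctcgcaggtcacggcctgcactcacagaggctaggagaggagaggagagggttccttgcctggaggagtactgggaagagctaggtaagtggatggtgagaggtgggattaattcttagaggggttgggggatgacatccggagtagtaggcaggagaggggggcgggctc
An EGR match was present in the Hpcal1 window and in 1 of the 3 Hpca windows, one not printed, and it overlapped no match of the other motifs in either. It was present in 3.06% of 32851 promoter windows. The EGR forms are nearly all G and C, and the matching windows of Hpcal1 and Hpca were 66.8% and 71.2% G and C. The median over all windows was 52.4%. No member window held the cAMP response element, which 1.55% of all windows held. The E-box, in 66.2% of all windows, matched 2 times in the printed Hpca window and not in that of Hpcal1. These matches are letters in a window and are no measure of binding.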

How the data were processed

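RNA was measured by stranded mRNA sequencing in 9 WT and 9 R6/1 hippocampal samples, per the labels' protocols, and groups follow the labelled genotype. The authors deposited RPKM per gene and library. The submitters' processing notes name TopHat, DESeq2, Bowtie and build mm9, which is NCBIM37. For each gene the authors also deposited a mean normalized count (a signal), a log2 fold change, a test score and a p-value, used here as an alternative. The deposited lamin B1 domain lists carry 1 score per domain, which was not used. How the replicates were combined there is not given in the sources used here.

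Deposited RPKM values are whole multiples of 1 read for 99.87% to 99.91% of values within 0.05 of a read, which gave the depths. Genes averaging 0.5 RPKM or more were tested with limma 3.58.1 (R 4.3.3, lmFit and eBayes with trend) on log2(RPKM + 0.5), two-sided, so fold changes of low genes are understated. Ratios, levels relative to marker lists and correlations used exact permutation tests written with NumPy 2.4.6, the first 2 kinds over 48620 regroupings. SciPy 1.17.1 gave the ranks for Spearman's rho. Gene lists, markers and members were chosen with earlier results of these data known. Named were the members, tested sensor and NECAB genes, the 3 largest called changes of each other list averaging 1 RPKM or more, and the 3 genes most like each member. One gene under this rule is not reported here. Tmem64, Tmem54, Gm11837, 4930447A16Rik, Gm11844, C1ql2, Prox1, Pla2g4e, Wfs1, Man1a, Stmn2, Syp, Sst and Gad1 were named after their values were seen. So were Fibcd1, Spink8, Map2, Nefl, Cck, Slc32a1, Lhx6 and Erbb4. The gene test was also tested on simulated data. A planned comparison of protein sequences was replaced by one of coding sequences. Replicate numbers are shared between genotypes without a stated pairing. Alternatives were other pseudocounts (0.1 and 1), filters, scalings, weights, a replicate block, voom on recovered reads, the authors' table and leaving out each library. Taking the median level of a marker list in each library, or leaving out each of its markers, was chosen after seeing the data. ATAC-seq was not analysed here.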

Additional observations from a re-analysis of the deposited data

Results flagged for a closer look

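In 4 cases a single value stood apart from the other 8 libraries of its genotype by the gap to the nearest value. Among 16 groups tested this way, chance flags about 1 in 20. They came from 4 different libraries. Calb2 in R6/1 replicate 1 was 27.8 RPKM with the next library at 18.4. Pvalb in R6/1 replicate 5 was 29.7 RPKM with the next at 23.2, and the fast-spiking markers were also highest there among R6/1 libraries, with a sum of 37.8 RPKM. Hpcal4 in WT replicate 1 was 369 RPKM with the next at 292, and Hpca was highest in that library too. Necab1 in WT replicate 2 was 32.0 RPKM with the next at 22.9. The reads behind these values were 655, 446, 21840 and 2364.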

How the results depend on the processing

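Each member kept its direction and its call in 30 of 30 alternatives. The largest adjusted p for any member was 0.0355, for Calb2 without R6/1 replicate 8, where its log2 difference was -0.49. Over the alternatives Hpca ranged from -1.25 to -1.06, Calb1 from -0.35 to -0.22 and Necab1 from 0.47 to 0.63.

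Some ratios near 0 that did not pass changed sign when 1 library was left out. Leaving out single libraries gave -0.185 to 0.0626 for Calb2 over Hpcal1, -0.126 to 0.0782 for Calb2 over Hpcal4, -0.0508 to 0.0618 for Pvalb over Ncald and -0.068 to 0.0606 for Hpcal1 over Hpcal4. They gave -0.143 to 0.0611 for Calb2 relative to the inhibitory list and -0.0321 to 0.0422 for Pvalb relative to the fast-spiking list. With a pseudocount of 0.1 Pvalb relative to the fast-spiking list was 0.0623, and it was 0.0358, 0.0166 and 0.0258 when Syt2, Tac1 or Kcns3 was left out of that list. These results missed the threshold in the fit of all libraries and in each of these alternatives.

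The replicate block gave 7133 calls against 6980 without it and changed no member's call. Same-numbered libraries correlated between -0.05 and 0.24, over 0.1 in 3 of 9 pairs, and 4 of 18 libraries were most like their own number, so the numbers were not taken to pair libraries. The fewest reads behind a value were 229 for Calb2 and 304 for Pvalb. The domain bounds have no replicates.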
